A study of Mus musculus with 47 samples.

Results

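The 46 genes described here encode proteins of the large (60S) subunit of the mouse ribosome, and were chosen by symbol from the genes with an annotated 3′ UTR row, 46 of 18981 genes in all. They were measured by SLAM-seq in P19 cells, an embryonal carcinoma line, either undifferentiated (D0) or at day 6 of neuronal differentiation in NDiff 227 medium with 500 nM retinoic acid (D6). Cells were given 4-thiouridine (4sU), which is read as a T>C conversion once it sits in RNA, at 20 µM for D0 and 500 µM for D6. In the catabolic assay a 15 h label was followed by a chase (the methods give a shorter label where they describe the normalization, and 15 h is used throughout), and in the anabolic assay uptake was followed from the addition of 4sU, with 4 time points each. There were 47 libraries in 16 groups, of 3 libraries each except the third catabolic point at D6, which had 2. The cells are wild type, and both states come from 1 line, so that the libraries are replicates of this line only. The 4sU dose and the differentiation state change together, so that conversion rates of D0 and D6 cannot be told apart from the dose.

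Large subunit proteins line the peptidyl transferase centre and the exit tunnel, form the P stalk that recruits translation factors, and hold the 5S RNA. Their mRNAs begin with a 5′ terminal oligopyrimidine (TOP) tract, which couples their translation to growth signals. They are abundant, housekeeping mRNAs in most cells.

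The markers of the states followed their labels. The summed reads of 7 undifferentiated markers lay between 1654 and 2732 RPM (the gene's reads scaled to the library total on 3′ UTRs) at D0 and between 647 and 911 at D6, and those of 8 neuronal markers between 508 and 667 at D0 and between 8578 and 10045 at D6. Among the undifferentiated markers, Sox2 averaged 944 RPM at D0 and 752 at D6. The others fell further, Lin28a from 986 to 12.9, Utf1 from 89.0 to 0.264, Pou5f1 from 38.9 to 0.315 and Nanog from 6.26 to 0, or were 0 in both states (Zfp42 and Dppa5a). Glial markers lay between 138 and 216 at D0 and between 125 and 130 at D6, endoderm markers between 10.4 and 20 and between 2.22 and 8.33, and mesoderm markers between 85.5 and 116 and between 0.877 and 16.9. Total reads on 3′ UTRs ranged from 1489528 to 11677046 per library, with a median of 5750402. The D6 libraries of the third catabolic point stood apart from the rest, with a median log2 change against D0 of −0.88 over all genes.

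A pyrimidine run near the annotated start is shown for members whose reads or label are described further on. The promoter windows come from RefSeq (GRCm38.p6), were found for 35 of the 46 members, and span 50 bases to each side of the annotated start. The longest uninterrupted run of C or T in the window is in capitals, and it need not be the tract at the mRNA's first base. Counted from the annotated start base as 0, it begins at base 26 for Rpl4, −8 for Rpl14, 1 for Rpl18, −50 for Rpl26, which is the edge of the window, −4 for Rpl27a and 11 for Rplp0.
Rpl4, chr9:64173405-64173434, plus strand: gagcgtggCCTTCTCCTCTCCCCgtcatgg
Rpl14, chr9:120571501-120571530, plus strand: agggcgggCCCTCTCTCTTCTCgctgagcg
Rpl18, chr7:45718062-45718091, plus strand: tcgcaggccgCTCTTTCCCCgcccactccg
Rpl26, chr11:68901516-68901545, plus strand: TCCTCTCCCCTTTCgctccgagactctcgc
Rpl27a, chr7:109519186-109519215, plus strand: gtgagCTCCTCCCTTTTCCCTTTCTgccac
Rplp0, chr5:115559466-115559495, plus strand: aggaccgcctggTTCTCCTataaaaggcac

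A run of at least 8 pyrimidines on the transcribed strand was found in 32 of 35 members (91.4%), against 39.3% of the 27025 genes with a window. With a minimum of 6 it was 100% against 71.4%, with 10 it was 85.7% against 20.6%, and with 12 it was 48.6% against 10.6%. On the opposite strand a run of at least 8 was found in 34.3% of members and 41.1% of genes. The run lengths were chosen after the sequences had been seen, and a run is a description of these letters only. Rplp0, whose longest run is 7 bases, is one of the members without a run of 8.

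Reads were spread unevenly over the members. The median over the libraries was 3162 RPM for Rpl8, 1803 for Rpl26, 1799 for Rpl4, 1280 for Rplp0 and 1216 for Rpl32. At the other end, Rpl10a, Rpl24, Rpl29, Rpl30, Rpl35 and Rpl36 had a median of 0. Rpl3, a protein close to the peptidyl transferase centre, had between 0 and 3.47 RPM in the libraries. Rpl10, which joins the subunit late, had between 0 and 21.0, and 14 libraries held no read of it. Of the 46 members, 32 had on average 1000 or more covered T positions in a library, the minimum for testing a conversion rate, 19 reached 10000, and 14 did not reach 1000.

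The last bases of the member transcripts, over about a read's length, were searched against all annotated transcripts, since reads of near-identical genes may be placed on either or on neither. At 98% identity over at least 90 bases, 9 members had another gene of this kind, namely Rpl9, Rpl10, Rpl12, Rpl35, Rpl36, Rpl36a, Rpl41, Rplp1 and Rplp2. Their median was 3.15 RPM, against 66.8 for the other 37. The number of members was 15 at 90% identity, 12 at 95% and 7 at 100%, and these thresholds were varied after the read levels had been seen. Rpl10a, Rpl24, Rpl29 and Rpl30 were also near 0 and had no other gene at 98%, though Rpl29 had 2 at 95% and 4 at 90%. The part of such copies in the low reads was not tested. The 3′ UTRs of Rpl5, Rpl22l1, Rpl23a, Rpl28, Rpl31, Rpl32 and Rpl35 overlap an exon of another gene on the opposite strand, and that of Rpl13a overlaps one on the same strand.

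The first comparison was of reads between D6 and D0 in libraries without 4sU. Of the 39 members tested, 6 were called lower at D6 and none higher (edgeR's quasi-likelihood test, adjusted p under 0.05 over all genes), and 7 had a log2 change above 0. Of all 11252 genes tested, 5.19% were called lower and 7.68% higher. The median log2 change was −0.47 over the tested members and 0.03 over all genes. The 7 members not tested had too few reads. Fewer cells with these mRNAs and less of them in each cell cannot be told apart in bulk samples.

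Rpl14 had 481, 562 and 416 RPM at D0 and 192, 242 and 180 at D6. The groups did not overlap, and the log2 change was −1.14 ± 0.27 (SE, edgeR adjusted p = 0.00603). Rpl8, near the peptidyl transferase centre, had 3641, 5694 and 3665 at D0 and 1847, 2575 and 1686 at D6. Its groups did not overlap either, with a log2 change of −0.99 ± 0.28 (edgeR adjusted p = 0.0240). Rplp0, the base of the P stalk, had 1561, 1933 and 1353 at D0 and 878, 1046 and 944 at D6, all D6 values lying under all D0 values (log2 change −0.66 ± 0.21, edgeR adjusted p = 0.0457).

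Rpl4, a protein of the exit tunnel, had 2911, 1799 and 2288 at D0 and 1390, 1107 and 1603 at D6. The highest D6 library was below the lowest at D0 (log2 change −0.65 ± 0.21, edgeR adjusted p = 0.0491). Rpl32 had 1282, 1614 and 1452 against 854, 814 and 886 (log2 change −0.67 ± 0.21, edgeR adjusted p = 0.0405). Rpl27a had 332, 430 and 410 against 212, 182 and 247 (log2 change −0.77 ± 0.25, edgeR adjusted p = 0.0497). The last 4 of these adjusted p-values lie close to the threshold.

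Members that did not pass the test varied in both directions. Rpl22 had 823, 623 and 759 at D0 and 447, 410 and 526 at D6, with a log2 change of −0.56 ± 0.22. Its paralog Rpl22l1, which can take the same place in the subunit, had 254, 67.1 and 263 against 159, 123 and 207 (log2 change −0.12 ± 0.48). The second D0 library lay far below the others for Rpl22l1, as it did for several members with few reads, while it was the highest of the 3 for each of the 6 called members except Rpl4. Libraries 26 (D0, catabolic, 0 h) and 72 (D0, anabolic, 9 h) were likewise highest of their groups for Rpl8, with 7559 and 6041 RPM, and lowest for Rpl22l1, with 45.99 and 67.7. The second D0 library was also lowest for Rpl5, which binds 5S RNA and Mdm2, with 44.4, 1.45 and 35.7 against 27.2, 17.5 and 16.3, for Rpl39 of the exit tunnel, with 23.7, 3.64 and 52.1 against 79.8, 37.2 and 35.5, and for Rpl38, with 16.6, 0.364 and 8.97 against 8.55, 5.55 and 8.46. Rpl11, the partner of Rpl5, had 12, 0.364 and 0.441 against 8.33, 0.278 and 0.430. The acidic stalk proteins Rplp1 and Rplp2 had log2 changes of 0.58 ± 1.14 and 0.13 ± 1.35.

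The largest log2 changes belonged to members with few reads. Rpl12, next to the P stalk, had 19.2, 0 and 39 at D0 and 1.10, 0 and 0 at D6. Rpl28 had 0, 0 and 0.294 at D0 and 0, 27.5 and 6.45 at D6. Both groups held a library at 0 for each of these genes, so that the groups overlapped, and neither passed the test. Rpl36 and Rpl36a, with at most 6.91 and 14 RPM at D0 and a library at 0 in each group, had the next lowest log2 changes (−5.34 ± 3.45 and −4.46 ± 3.20).

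**Figure D1:**
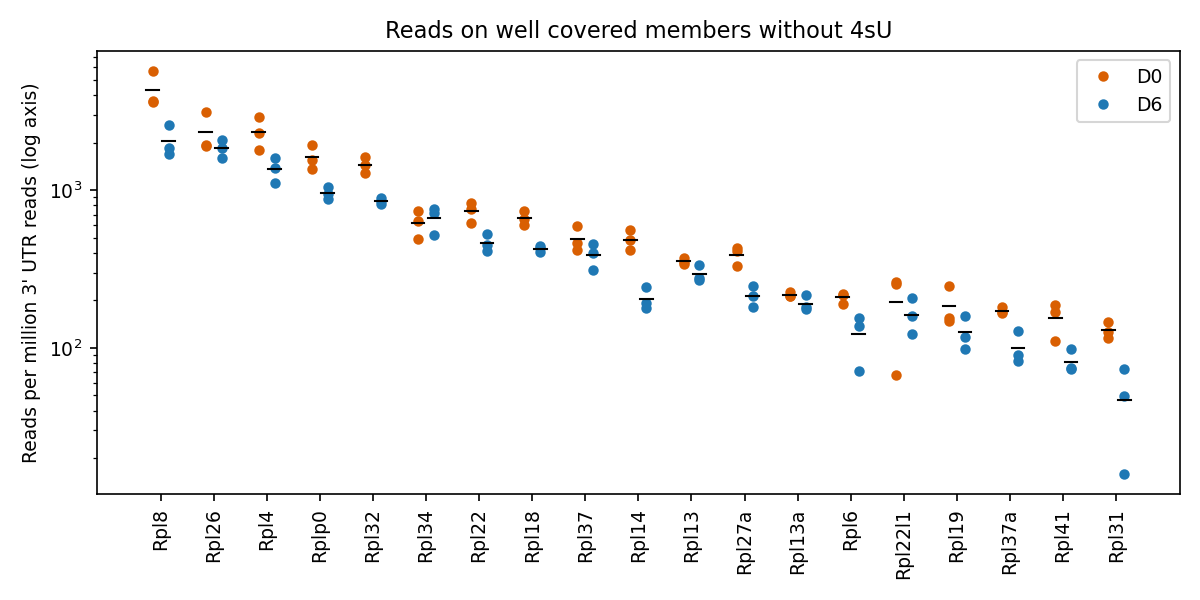
RPM (log axis) of the 19 members whose covered T positions averaged 10000 or more, in the libraries without 4sU; points are libraries, 3 for D0 (orange) and 3 for D6 (blue), and bars are means. For Rpl4, Rpl8, Rpl14, Rpl27a, Rpl32 and Rplp0, which were called, the D6 points all lie below the D0 points, and so they do for Rpl6, Rpl13, Rpl18, Rpl22, Rpl31, Rpl37a and Rpl41, which were not. The share of all genes whose points separate in this way is not given, so the separation describes the plot and is no result about the members.

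**Figure D2:**
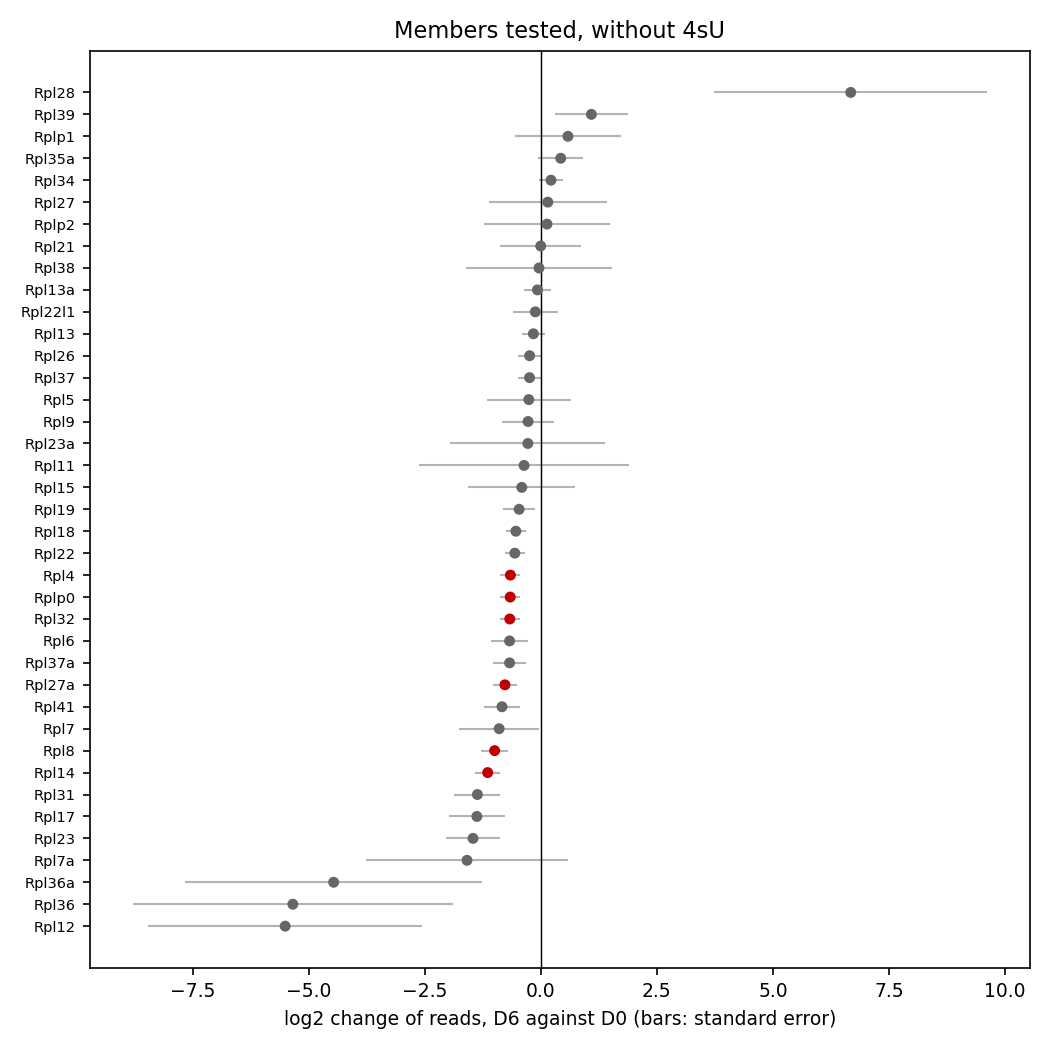
Log2 change of reads, D6 against D0 without 4sU, of the 39 members tested, with standard errors as bars; red points passed the test. The 6 red points lie between −1.14 and −0.65, and the widest bars belong to members with few reads.

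The number of members called moved when single libraries were left out of the fit, which also held the 0 h catabolic libraries and took 1 estimate of the spread from all of them. Of the 12 fits that leave out 1 library, 10 moved the count by over 1.5 times. It was 1 without library 37 of D6 (anabolic, 0 h), 2 without 39 and 3 without 38 of the same group, 2 without 56 and 3 without 57 of D0 (anabolic, 0 h), 2 without 07 and 3 without 08 or 09 of D6 (catabolic, 0 h), and 2 without 25 and 3 without 27 of D0 (catabolic, 0 h). Rpl14 was called in each of these fits and under every other setting run for it. In the fits that lost a call the log2 change lay between −0.77 and −0.52 for Rpl4, −0.88 and −0.65 for Rpl27a, −0.71 and −0.54 for Rpl32, −0.73 and −0.45 for Rplp0, and −0.91 and −0.68 for Rpl8.

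The same comparison was made at each of the 8 assay points, in 1 fit over the 47 libraries. Some members were called lower, and none higher, at every point: 5, 8, 5 and 6 of 46 in the anabolic assay and 8, 4, 3 and 5 of 46 in the catabolic assay, in the order of time. Of all genes, 3.96%, 4.98%, 4.1% and 6.35% were called lower in the anabolic assay, and 4.77%, 4.42%, 12.7% and 4.72% in the catabolic assay. At the point with 12.7%, the share of members was under that of all genes. The median log2 change of the members lay between −0.87 and −0.41. Rpl4 and Rpl8 were called lower at 7 of the 8 points, Rpl32 at 6, Rpl18 at 5 and Rplp0 at 4, and 13 of 46 members (28.3%) were called at 1 point or more, against 20.4% of all genes. These 13 were all among the 19 members above 10000 covered T positions (68.4% of them), against 32.9% of the 2965 genes above that minimum. Values lay below 0 at all 8 points for 15.2% of members and 16.3% of all genes, and for 36.8% and 29.3% of those above that minimum. The share of all 3′ UTR reads that fell on members without 4sU was 1.76% ± 0.17 in the 3 undifferentiated libraries and 1.09% ± 0.05 in the 3 of D6 (mean ± SD).

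The label itself could change the reads, which was examined by comparing libraries after 15 h of 4sU with libraries without it. No member was called in either state by edgeR, against 0.0355% of all genes called at D0 and 0.0355% at D6. The difference of the effect between the states called no member either, and 0.00889% of all genes. An unadjusted p under 0.05 was found in 1 of 39 members in each state and in 2 of 39 for the difference. No share of all genes is given at that looser threshold. The smallest p was that of Rpl22l1 at D6 (log2 change −1.82 ± 0.50, edgeR adjusted p = 0.414). DESeq2 also called no member in these comparisons.

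The conversion rate, the share of covered T positions read as C, was next compared between the start of the chase and 9 h later. At D0, 1 of the 32 members tested was called lower at 9 h by edgeR, against 21.8% of 9185 genes, and the median log2 change was −0.55 for members and −2.36 for all genes. At D6, 7 of 32 members were called lower against 36.4% of genes, with medians of −0.59 and −3.03. The members' shares of calls lie below the background in both states. In simulated data with the fitted spread between libraries, even changes larger in size than the members' medians were rarely called in groups of this size. A member that was not called may therefore have changed. The deeply covered Rpl4 and Rpl8 were nevertheless called at log2 changes of −0.55 (D0) and −0.51 (D6). At D6 the share of the rate left lay between 1.87% ± 1.16 (SE) for Rpl17 and 138% ± 112 for Rpl9. At the low end Rpl7 had 1.99% ± 2.26, Rpl5 5.06% ± 4.92 and Rpl22l1 10.7% ± 10.1, and at the high end Rpl39 had 110% ± 40.8 and Rplp0 104% ± 17.4. The low values of Rpl7 and Rpl5 rest on 0 h rates that differed between libraries, 0%, 9.39% and 15.2% for Rpl7 and 2.64%, 3.96% and 0.0509% for Rpl5.

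The share of the rate left at 9 h was also compared above a common minimum of 10000 covered T positions, which sets a floor and does not equalise the depth. For the 19 members above it, the rate at 9 h was in the median 68.7% of the rate at 0 h at D0 and 64.1% at D6. For the 2963 and 2962 genes above it the medians were 19.5% and 13.9%. With the unlabelled rate subtracted, the medians were 66.6% and 61.3% for these members and 11.6% and 11.2% for these genes. A rate over 50% of the start was left in 16 and 14 of the 19 members, and in 16.1% and 5.1% of the genes. Above the same minimum, 9 genes of the small subunit had medians of 79.1% at D0 and 70.02% at D6, and 11 other TOP genes 56.8% and 43.7%.

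Rpl4 was the member called at D0. Its rates were 1.21%, 1.29% and 1.36% at 0 h and 0.828%, 0.924% and 0.879% at 9 h, without overlap (log2 change −0.55 ± 0.19, edgeR adjusted p = 0.0366). That call was lost when any of the 6 D0 libraries in it was left out, with log2 changes between −0.59 and −0.51 in those fits. DESeq2, limma on background-subtracted rates and the slope over the hours of the methods lost it too. At D6 the rates of Rpl4 were 4.62%, 4.49% and 4.14% at 0 h and 3.05%, 2.20% and 1.79% at 9 h (log2 change −0.91 ± 0.19, edgeR adjusted p = 0.000614).

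Rpl26, which lies at the exit tunnel and binds p53 mRNA, had 1.09%, 1.22% and 1.20% at 0 h and 0.816%, 0.802% and 0.795% at 9 h at D0. At D6 it had 3.34%, 3.45% and 3.09% and then 2.33%, 1.75% and 1.42%, and was called lower (log2 change −0.84 ± 0.21, edgeR adjusted p = 0.00346). The 9 h values lay below the 0 h values in both states. Rpl22 had 4.49%, 5.25% and 5.0% at 0 h and 2.05%, 1.98% and 2.86% at 9 h at D6 (log2 change −1.09 ± 0.28, edgeR adjusted p = 0.00452).

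Rplp0 had the following rates. At D0 they were 1.02%, 1.06% and 1.18% at 0 h and 0.676%, 0.686% and 0.770% at 9 h. At D6 they were 3.53%, 2.31% and 3.00% at 0 h and 2.98%, 3.71% and 2.49% at 9 h, and the 2 groups overlapped. The difference between the states was a log2 change of 0.67 ± 0.36 and did not pass the test (edgeR adjusted p = 0.496).

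The other members called at D6 were Rpl8, Rpl17, Rpl18 and Rpl19. Rpl18 had 4.43%, 4.32% and 5.17% at 0 h and 2.01%, 0.643% and 1.91% at 9 h (log2 change −1.61 ± 0.44, edgeR adjusted p = 0.00707). Rpl19 had 4.34%, 6.88% and 5.37% and then 2.09%, 1.12% and 2.17% (log2 change −1.62 ± 0.53, edgeR adjusted p = 0.0206). This call was lost without library 08 of the 0 h group, where the log2 change was −1.43. It was also lost with reads carrying a conversion and with the slopes over all time points. Rpl17 had 1.66%, 2.97% and 2.62% and then 0.0933%, 0% and 0.0423% (log2 change −5.42 ± 1.81, edgeR adjusted p = 0.0219). At D0 the 9 h rates of Rpl17 were 0.833%, 3.44% and 0.317%, and overlapped those at 0 h. The D6 call of Rpl17 was lost without library 18 of the 9 h group, where its log2 change was −5.26. That of Rpl26 was lost with the slope over the hours of the methods. With limma on background-subtracted rates, Rpl17 was the only one of the 7 still called, while the log2 changes of the other 6 lay between −1.79 for Rpl18 and −0.81 for Rpl8, against −1.61 and −0.51 by edgeR.

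Rpl8 and Rplp1 carried T>C reads without any 4sU. Their pooled rates in unlabelled libraries were 2.45% at D0 and 1.80% at D6 for Rpl8, and 6.91% and 6.88% for Rplp1. The 3′ UTR of Rplp1 has few T positions, and 1 of them is 7.14% of all, while 1 position of Rpl8 is 9.09%. Rplp1 stayed between 6.60% and 9.96% in the 0 h and 9 h catabolic and the 9 h anabolic libraries that covered it. At the points between, D6 libraries lay outside this range, with 21.4% in library 15 (catabolic), 10.6% in 43 and 6.08% in 41 (anabolic). The cause of the unlabelled rate was not tested. For Rpl8 at D6 the rates were 6.11%, 5.82% and 6.40% at 0 h and 4.60%, 4.45% and 3.79% at 9 h.

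**Figure D3:**
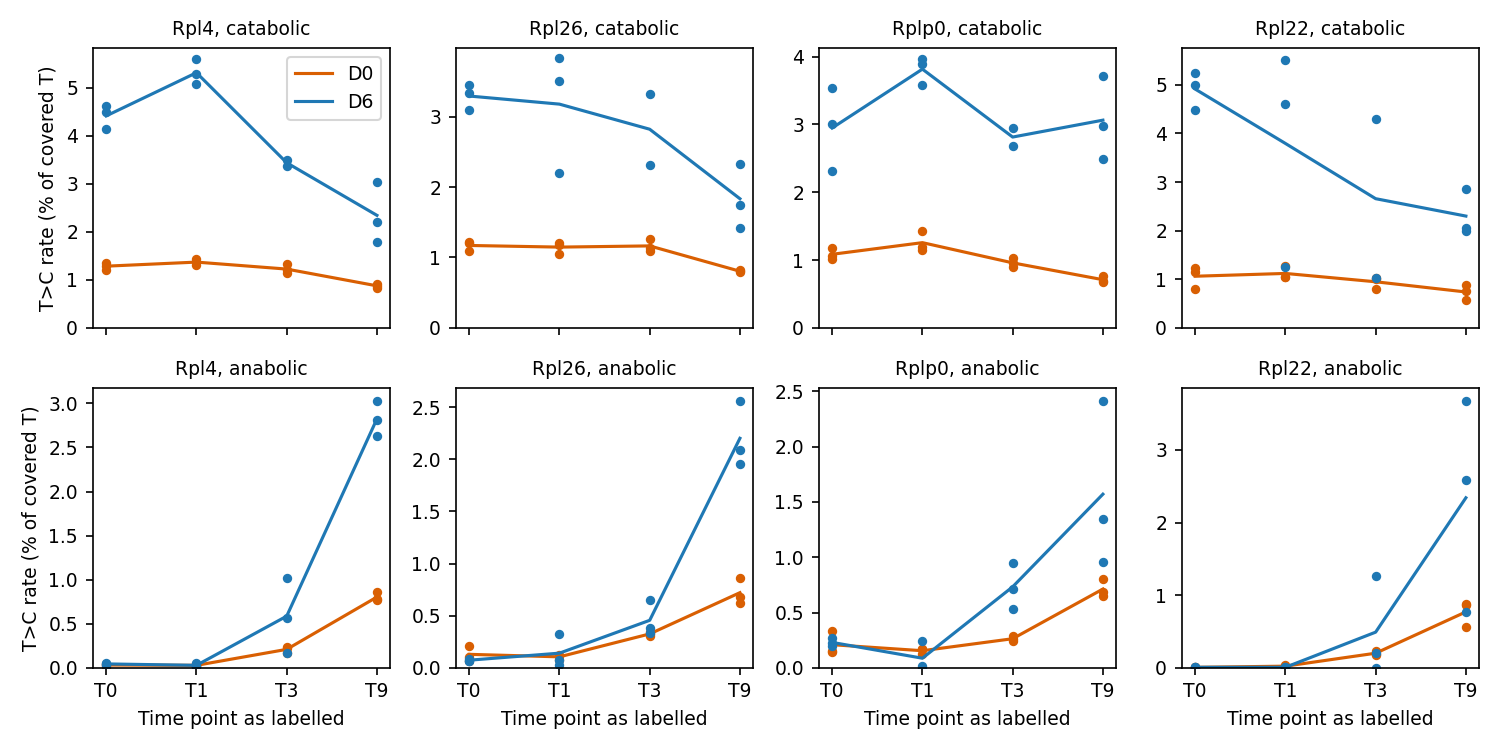
T>C conversion rate (% of covered T positions) of Rpl4, Rpl26, Rplp0 and Rpl22 at the 4 time points of the catabolic (top) and anabolic (bottom) assay. Points are libraries, lines join group means, D0 in orange and D6 in blue. The D6 rates at 0 h of the chase lie above the D0 rates for each gene, and at D6 the rates of Rplp0 at 0 h and 9 h overlap.

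**Figure D4:**
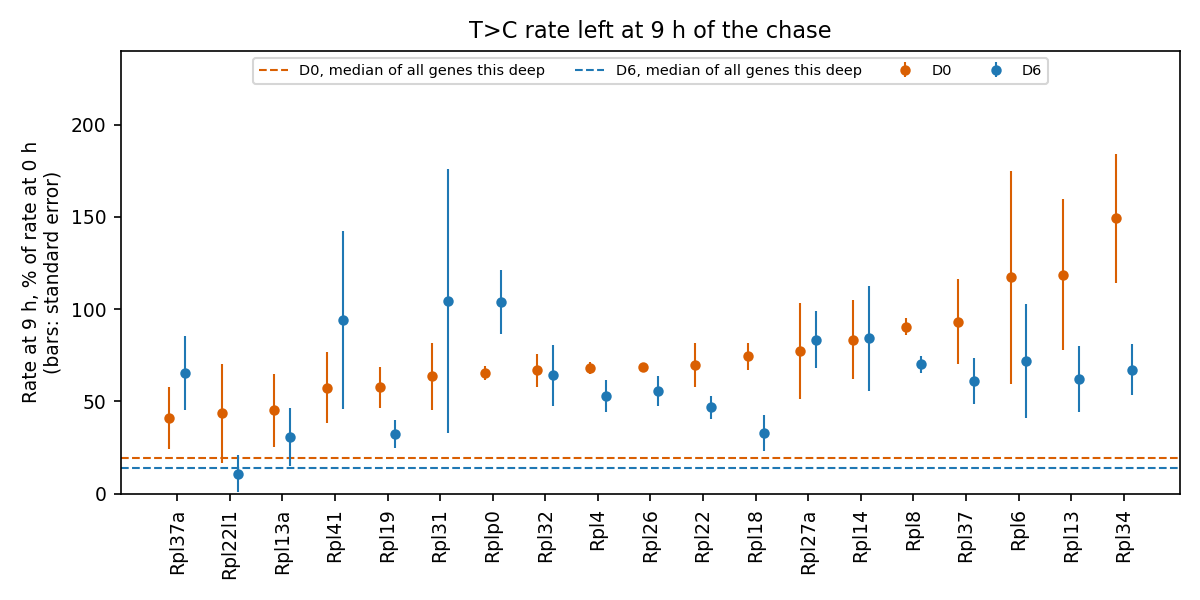
Conversion rate at 9 h of the chase as % of the rate at 0 h for the 19 members with the deepest coverage, with standard errors; dashed lines are the medians of all genes above the same minimum of covered T positions, 19.5% at D0 and 13.9% at D6. All D0 points lie above the D0 line, and at D6 Rpl22l1 lies under the D6 line.

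The difference of the 9 h change between the states was tested directly. It called no member by edgeR, against 0.305% of all genes called. An unadjusted p under 0.05 was found in 3 of 32 members, and no share of all genes is given at that looser threshold. DESeq2 called 1 member, Rpl17. The median of the difference was −0.37 for members and −0.71 for all genes.

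After 15 h of label, rates were higher at D6 than at D0, with the dose 500 µM against 20 µM. By edgeR, 13 of 32 members were called higher and none lower, against 7.76% of genes called higher. The median log2 difference was 2.04 for members and 1.69 for all genes. Over the 19 deepest members the median rate of a library averaged 1.14% ± 0.06 at D0 and 4.28% ± 0.33 at D6 (SD over 3 libraries each), and over all genes above the same minimum 1.39% ± 0.07 and 4.70% ± 0.37. Limma on background-subtracted rates called none of these members, with log2 differences from 1.61 for Rplp0 to 3.19 for Rpl6, against 1.44 and 2.74 by edgeR, and 2.98 against 1.01 for Rpl8. The tool and the subtraction changed together in that fit.

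In the anabolic assay, the 9 h rate was set against the rate after 15 h of label. Of the members, none was called different between the 2 times at D0 or at D6, against 0.0435% and 0.0544% of genes called. The difference between the states called no member and 0% of genes. An unadjusted p under 0.05 was found in 5 of 32 members at D0, 9 of 32 at D6 and 2 of 32 for the difference. No share of all genes is given at that looser threshold, so these counts cannot be set against the background. In the median, the 9 h rate was 62.4% of the 15 h rate at D0 and 62.6% at D6 for the 19 deepest members, and 87.2% and 73.4% for genes above the same minimum. Rpl4 had 0.768%, 0.785% and 0.857% at 9 h at D0 and 2.81%, 2.63% and 3.03% at D6.

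A half-life was computed from the 0 and 9 h rates, and kept where the fit had an R squared over 0.6 and gave at most 5000 min. Decay half-lives met these limits for 7 of 32 members at D0 and 9 at D6. A member whose rate barely changes cannot reach this R squared, so that the kept values describe those members and not the whole group. At D0 the longest were those of Rpl18 (1266 ± 424 min, SE) and Rpl26 (998 ± 90 min), and the shortest those of Rpl9 (181 ± 91 min) and Rpl19 (678 ± 236 min). At D6 the longest were those of Rpl8 (1051 ± 189 min) and Rpl37 (759 ± 309 min), and the shortest those of Rpl17 (94.1 ± 14.6 min) and Rpl22l1 (168 ± 70 min). The shortest value of each state rests on 9 h rates near 0. These were 0.474%, 0% and 0% for Rpl9 at D0, and 0.0933%, 0% and 0.0423% for Rpl17 at D6. Rpl9 also has a near-identical gene, and Rpl17 had 303% ± 297 (SE) of its rate left at D0. With the unlabelled rate subtracted, the D6 half-life of Rpl8 was 676 ± 131 min, under the 758 ± 309 min of Rpl37. At D0 that of Rpl26 was then 858 ± 75 min, under the 944 ± 112 min of Rpl4. The half-lives count from 0 h and use no time point between. Over the 19 deepest members the median rate averaged 1.14% at 0 h and 1.19% at the second chase point at D0. At D6 it averaged 4.28% and 4.22%. Over all genes above the same minimum it was 1.39% and 1.38% at D0, and 4.70% and 4.62% at D6. The standard errors do not take in that rates had hardly fallen by then.

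The limits were met in both states by 4 members. Rpl4 had 976 ± 115 min at D0 and 591 ± 150 min at D6, Rpl26 998 ± 90 and 640 ± 162 min, Rpl18 1266 ± 424 and 335 ± 88 min, and Rpl19 678 ± 236 and 332 ± 68 min. Each had the lower value at D6, but the difference of the 9 h change between the states did not pass the test for any of them (edgeR adjusted p = 0.653 for Rpl4, 0.767 for Rpl26, 0.467 for Rpl18 and 0.735 for Rpl19). At D0 the kept members had a median of 931 min, and 606 min without library 27 of the 0 h group. At D6, with partly different members kept, it was 493 min, and no test was made of the 2 medians. With no minimum of R squared, 23 members were kept in each state, and the medians were 678 min at D0 and 640 min at D6. The lower median at D6 among the kept members thus depends largely on which members passed the limit. Synthesis half-lives were kept for 16 members at D0 (median 397 min, and 664 min from all time points at the hours of the methods) and 18 at D6 (median 490 min). Rpl4 had 382 ± 30 min at D0 and 367 ± 33 min at D6, values that differ by less than their errors. At the second anabolic point the median rate of the 19 deepest members averaged 0.0405% at D0 and 0.0169% at D6. Without label it was 0.0216% and 0.0204%, so that little or no uptake was seen by then.

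The assembly factors of the large subunit, which build it in the nucleolus, gave a further set of reads. Of 35 tested, 11 were lower and none higher at D6 without 4sU, with a median log2 change of −1.29, against 5.19% of genes called lower. Ppan changed by −3.42 ± 0.50 (edgeR adjusted p = 7.2e-05) and Grwd1 by −2.77 ± 0.51 (edgeR adjusted p = 0.000674). The 27 small subunit proteins tested had a median log2 change of −0.37. Of 19 other TOP genes, 4 were lower, with a median of −0.73, led by Npm1 (−1.85 ± 0.24, edgeR adjusted p = 2e-05).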

How the data were processed

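The authors mapped QuantSeq 3′ reads to mm10 with SLAMdunk 0.3.3, per the file headers, and deposited for each 3′ UTR interval counts of reads, covered T positions and conversions, a conversion rate as a fraction, and CPM. The deposited counts were used. The deposited fraction equals conversions over coverage, and it and the deposited CPM were otherwise not used. Each of the 18981 genes was represented by the mRNA transcript with most reads. Reads were tested with edgeR 4.0.16 (quasi-likelihood test, TMM, R 4.3.3), and conversions likewise with covered T positions as an offset, for genes with a mean of at least 1000 per library. P-values were adjusted over all genes by Benjamini-Hochberg. DESeq2 1.42.0 and limma 3.58.1 were alternatives. Scripts were tested on simulated data. Half-lives used Python 3.11.15.

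The members and lists were chosen with earlier results of these data known. Named genes were the stalk, 5S, paralog and core proteins, the extremes of each comparison and the members called. The labels give hours 0, 1, 3 and 9, and the methods 0, 3, 6 and 9, so that only 0 and 9 h were used in the main tests. Reads carry no molecular identifiers, and p-values measure the spread between libraries. The thresholds of the search for near-identical genes (first 98%, then 95%, with a change of the transcript searched) and the pyrimidine run lengths were chosen with these data in view. The calls of reads among small subunit genes are not reported here.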

Additional observations from a re-analysis of the deposited data

How the results depend on the processing

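No paired analysis was made, because the labels number each library once and do not say whether libraries of different groups were paired. The number of members with lower reads at D6 was 6, and 3 with no filter on low counts. It lay between 5 and 9 under the other 5 settings, and between 1 and 6 when 1 library was left out. DESeq2 called 1 member higher, and with no filter 1 member was called after 4sU at D6. The number with a lower rate at 9 h at D0 was 1, and 0 with DESeq2, 0 with limma on background-subtracted rates and 0 with a slope over the hours of the methods, but 2 with reads carrying a conversion, 2 with a slope over the hours of the labels and 3 with a minimum of 10000 covered T positions (0 to 3 with 1 library left out). At D6 it was 7, and 1 with limma and 11 with the slope over the hours of the labels (6 to 9). DESeq2 called 1 member in the difference of decay. Limma called 0 members for the rate after 15 h, against 13 (11 to 13 with 1 library left out). The median decay half-life at D0 was 931 min, and 1068 with all time points at the hours of the labels, 858 with background subtracted and 678 with no minimum of R squared (606 to 938 with 1 library left out), while no member met the limits with the hours of the methods. At D6 it was 493 min, and 360 with the hours of the methods, from 1 member, 654 with those of the labels, 640 with no minimum of R squared and 646 from reads with a conversion (398 to 541). The median synthesis half-life at D0 was 397 min, and 664 with the hours of the methods and 341 from reads with a conversion (373 to 420), and at D6 490 min, and 681 with the hours of the methods and 376 from reads with a conversion (369 to 485). The causes were not tested. No log2 change of a called member turned its direction in the settings run. Low coverage limits most members, and 14 of 46 could not be tested for rates.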
